A study of Mus musculus with 8 samples.

Results

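The genes described are 5 members of the platelet-derived growth factor (PDGF) family, the receptor genes Pdgfra and Pdgfrb and the ligand genes Pdgfa, Pdgfb and Pdgfc. Every probe set whose single gene symbol was one of these was taken, which gave 11 of the 45101 probe sets on the array and 5 of the 18194 genes with a probe set of their own. The rule reads gene symbols only. The genes were followed on 8 Affymetrix arrays of total RNA from mouse cultures of a study on heart tissue made from parthenogenetic stem cells. PSC (3 arrays) are parthenogenetic stem cells of strain C57BL/6, taken at day 6 from blastocysts that grew out of oocytes activated with strontium chloride, so that both chromosome sets are maternal. EB_PSC (2 arrays) are embryoid bodies of the same kind of cell, strain C57BL/6, aggregates left to differentiate over 15 days. The ESC group (3 arrays) holds embryonic stem cell line R1, a single line, kept on fibroblast feeders from mouse embryos with leukemia inhibitory factor. The labels name neither a strain for ESC nor feeders for PSC, so line, origin and culture cannot be told apart in the comparison of PSC with ESC. The labels do not say whether replicates were grown separately, and p-values then cover the spread between these samples alone, which may be technical.

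PDGFs are secreted dimers that bring together pairs of receptor tyrosine kinases, which phosphorylate each other and recruit phosphatidylinositol 3-kinase, phospholipase C gamma and the Ras pathway. PDGF-A and PDGF-C act mainly through the alpha receptor, encoded by Pdgfra, whereas PDGF-B binds both the alpha receptor and the beta receptor, encoded by Pdgfrb. In the early mouse embryo Pdgfra marks primitive endoderm and later paraxial and cardiac mesoderm, and Pdgfrb marks fibroblasts, pericytes and vascular smooth muscle, while PDGF-B comes largely from endothelial cells and platelets.

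The 250 bases ahead of the annotated start are shown for the members with a matching sequence. These were a receptor and a ligand that were higher in embryoid bodies (Pdgfra and Pdgfc) and the ligand that was lower (Pdgfa). RefSeq sequence of GRCm38.p6 matched 3 of the 5 members. Capitals mark matches to the GC box letters GGGCGG on either strand.
Pdgfra, chr5:75152001-75152250, plus strand: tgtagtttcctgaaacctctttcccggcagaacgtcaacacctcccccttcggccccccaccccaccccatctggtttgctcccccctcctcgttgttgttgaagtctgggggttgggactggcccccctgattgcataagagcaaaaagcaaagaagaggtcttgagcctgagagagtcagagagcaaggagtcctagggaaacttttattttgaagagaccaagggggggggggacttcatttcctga
Pdgfc, chr3:81036166-81036415, plus strand: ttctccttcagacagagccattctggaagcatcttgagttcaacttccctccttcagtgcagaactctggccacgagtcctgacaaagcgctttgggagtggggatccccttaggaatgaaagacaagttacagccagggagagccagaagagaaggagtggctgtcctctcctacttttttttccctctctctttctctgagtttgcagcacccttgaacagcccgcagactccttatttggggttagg
Pdgfa, chr5:138994945-138995194, minus strand: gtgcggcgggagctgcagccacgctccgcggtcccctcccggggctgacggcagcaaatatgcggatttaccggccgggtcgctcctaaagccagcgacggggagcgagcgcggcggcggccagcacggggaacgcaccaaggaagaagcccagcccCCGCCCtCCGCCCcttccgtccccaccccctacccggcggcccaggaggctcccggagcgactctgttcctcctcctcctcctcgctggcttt
The Pdgfa window held 28 CpG dinucleotides and 72.4% G and C, above 93.6% of the 32851 windows of this length in the RefSeq table, whose median was 52.4%. The Pdgfra window held 4 CpG and 54.4% G and C, and the Pdgfc window 3 CpG and 50.8%. Pdgfa carried 2 GC boxes, which did not overlap and began 93 and 86 bases ahead of the start. A second annotated start of Pdgfa, with the window chr5:138994282-138994531, held 1 GC box, 19 CpG and 66.4% G and C. The windows of Pdgfra and Pdgfc held none of the 5 motifs searched on both strands. These were the GC box (GGGCGG, in 32.74% of all windows), the TATA box (TATAAA, 12.37%), the CCAAT box (CCAAT, 33.85%), a GATA motif (GATAA, 22.58%) and an AP-1 motif (TGANTCA, 6.75%). A match describes these letters in this window and does not show a site in use.

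All levels are log2 values from robust multi-array averaging (RMA) of a single probe set. Levels of different probe sets are not compared, except to choose the brightest. The summed signal of a marker list serves to set the same list side by side across arrays. Each gene is represented by its brightest probe set, judged by the mean of the 8 arrays, unless another is named. This choice uses the arrays that are then compared, so it can favour a probe set that is high in a single group. A gene was called where limma's adjusted p was below 0.05, adjusted over all genes. A group mean below 5.44, the median of all values, is dim. A difference from a dim group is given without a fold because its size is a lower bound. The bound, written as "at least", holds for the probe set used and not for the gene, whose other probe sets can differ by less. In bulk RNA, fewer cells of a type and less RNA per cell cannot be told apart.

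Embryoid bodies exceeded PSC in 3 of the 5 members and lay below in 1, and the test called no difference for 1. The receptor genes Pdgfra and Pdgfrb and the ligand gene Pdgfc rose, Pdgfa fell, and Pdgfb stayed near the dim limit. The background is wide here, since 43.9% of all genes were called between embryoid bodies and PSC, 18.8% as higher and 25.2% as lower. Of these calls 42.7% were higher, a share that became 54.0% after cyclic loess normalization, under which the members kept the same calls. Arrays of 4 of the 5 members did not overlap between these groups, against 62.8% of all genes. The median difference of the members was 1.87 log2 units, against -0.09 over all genes. Of the 11 probe sets tested as rows of their own, 7 stood higher, 2 lower and 2 without a call, where 39.6% of all single-gene probe sets were called, 17.6% as higher and 22.0% as lower.

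**Figure D1:**
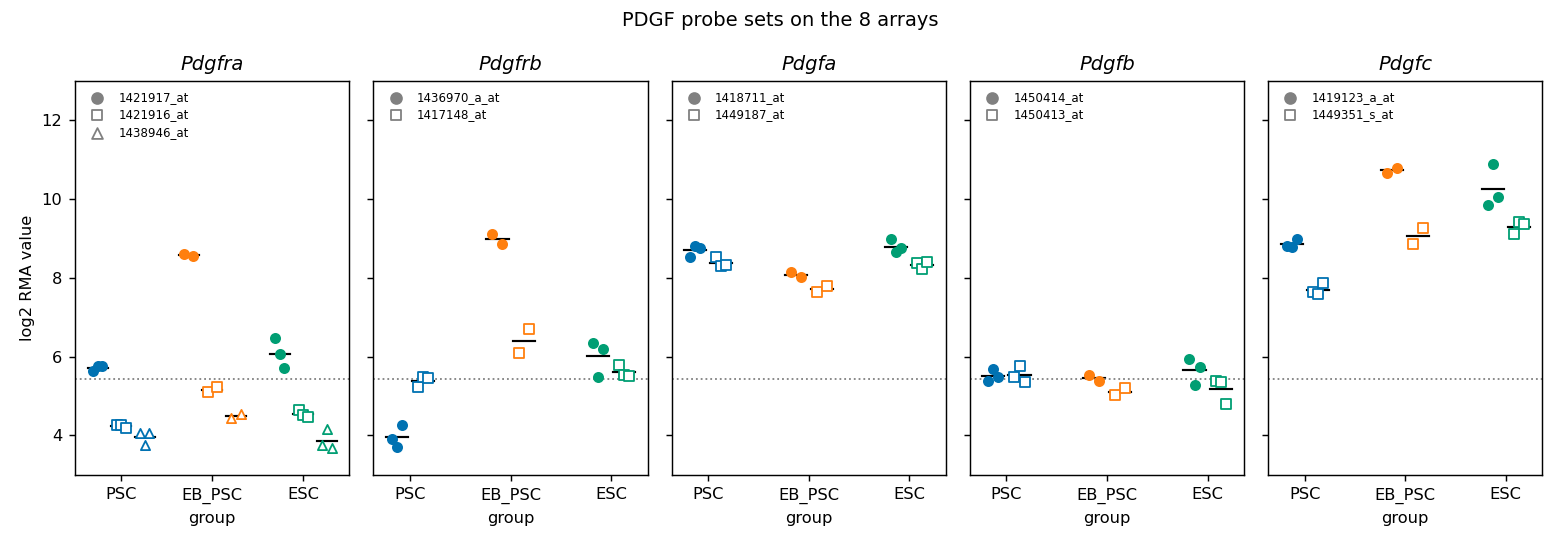
Log2 RMA values (y axis) of the 11 PDGF probe sets on each array of the 3 groups (x axis), 1 panel a gene. Filled symbols are the probe set with the highest mean, open symbols the others, black bars group means, and the dotted line the dim limit of 5.44. The embryoid body points of Pdgfra and Pdgfrb lie above all others of the same probe set, and those of Pdgfa lie below.

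Pdgfra encodes the alpha receptor. Its values in the probe set 1421917_at were 5.65, 5.76 and 5.76 in PSC, 8.61 and 8.56 in embryoid bodies, and 6.48, 6.06 and 5.70 in ESC. Both embryoid body arrays stood above all 6 arrays of undifferentiated cells, and PSC and ESC overlapped. Group means were 5.72 ± 0.07 (SD, n = 3) in PSC, 8.58 ± 0.04 (n = 2) in embryoid bodies and 6.08 ± 0.39 (n = 3) in ESC. The rise over PSC was 2.86 ± 0.18 (SE) log2 units, 7.26-fold (limma adjusted p = 2.93e-08), and 278 of 18194 genes had as large a measured rise or a larger one. Embryoid bodies exceeded ESC by 2.50 ± 0.18, or 5.67-fold (limma adjusted p = 9.85e-08). The order of levels was embryoid bodies, ESC, PSC, and the lower neighbours did not pass the test, with PSC minus ESC at -0.36 ± 0.16 (limma adjusted p = 0.149; 95% interval -0.71 to -0.01). Without ESC replicate 3, the array nearest to PSC, this difference was -0.54 and passed (limma adjusted p = 0.0273).

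The other Pdgfra probe sets gave the same direction between embryoid bodies and PSC at lower signal. In 1421916_at the means were 4.24 ± 0.04 in PSC, 5.16 ± 0.09 in embryoid bodies and 4.55 ± 0.09 in ESC, all dim, and the difference between embryoid bodies and PSC was 0.92 ± 0.12 (limma adjusted p = 5.98e-05). In 1438946_at they were 3.96 ± 0.18, 4.50 ± 0.07 and 3.86 ± 0.26, with a difference of 0.54 ± 0.16 (limma adjusted p = 0.0177). Averaging the probe sets of the gene therefore gave a smaller rise, 1.44 over PSC and 1.25 over ESC.

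Pdgfrb encodes the beta receptor and differed between all 3 cultures. Its values in 1436970_a_at were 3.91, 3.71 and 4.26 in PSC, 9.11 and 8.87 in embryoid bodies, and 6.34, 5.48 and 6.20 in ESC. No array of any group overlapped with another group, and all 3 PSC arrays were dim. Group means were 3.96 ± 0.28 (SD, n = 3), 8.99 ± 0.17 (n = 2) and 6.01 ± 0.46 (n = 3). Embryoid bodies exceeded PSC by at least 5.03 ± 0.23 (SE) log2 units (limma adjusted p = 1.02e-09). They exceeded ESC by 2.98 ± 0.23, or 7.90-fold (limma adjusted p = 1.67e-07). PSC lay at least 2.05 ± 0.20 below ESC (limma adjusted p = 1.67e-05).

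The second Pdgfrb probe set, 1417148_at, differed in part. Its group mean was higher in PSC (5.39 against 3.96) and lower in ESC (5.61 against 6.01) and embryoid bodies (6.39 against 8.99). The choice of 1436970_a_at as the brightest thus leaned on the embryoid body arrays. In 1417148_at the values were 5.24, 5.48 and 5.45 in PSC, 6.08 and 6.69 in embryoid bodies, and 5.78, 5.54 and 5.50 in ESC. Embryoid bodies again stood above PSC, by 1.00 ± 0.18 (limma adjusted p = 0.000575), whereas PSC minus ESC was -0.22 ± 0.16 and had no call (limma adjusted p = 0.408). With the mean of both probe sets the differences were 3.01 between embryoid bodies and PSC, 1.88 between embryoid bodies and ESC and -1.13 between PSC and ESC, and all 3 stayed past the test.

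The receptors were also set against each other within each array. The log2 value of Pdgfra minus that of Pdgfrb has no meaning as a ratio of transcripts, but its change between groups shows whether the receptor genes moved by unequal amounts. It was 1.73, 2.05 and 1.50 in PSC, -0.50 and -0.31 in embryoid bodies, and 0.14, 0.58 and -0.50 in ESC. The PSC arrays stood apart from all others, and embryoid bodies and ESC overlapped. Pdgfrb was dim on all 3 PSC arrays, and Pdgfra lay close above the dim limit there. The true size of the differences of the balance from PSC is therefore not known, and the values hold for these probe sets alone. The measured balance was 2.17 lower in embryoid bodies than in PSC (exact two-sided permutation test, p = 0.1, the smallest this design allows). It was 1.69 higher in PSC than in ESC (exact permutation p = 0.1). Embryoid bodies and ESC differed by -0.48 (exact permutation p = 0.3). With the mean of each gene's probe sets the first values were -1.57 and 0.94. The direction depends on the Pdgfrb probe set. In 1417148_at Pdgfrb rose over PSC by 1.00, less than the 2.86 of Pdgfra, so the balance would be higher in embryoid bodies. Its PSC minus ESC difference was -0.22 against -0.36 for Pdgfra, which also turns the sign of that comparison.

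**Figure D2:**
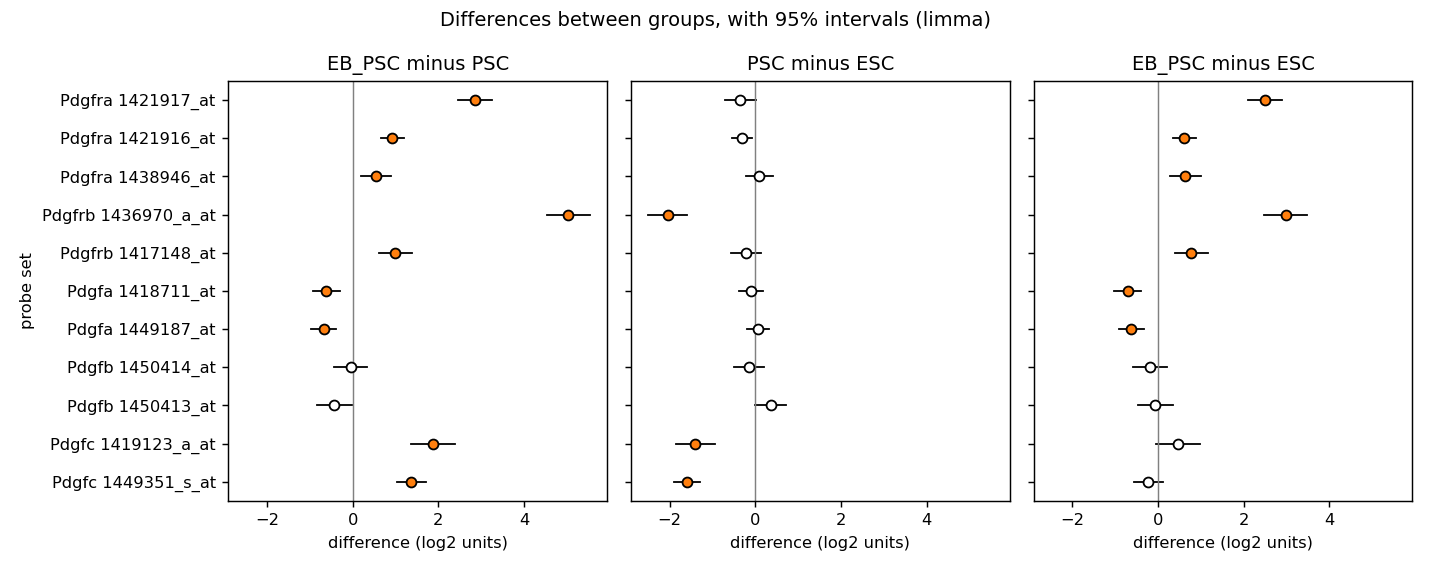
Differences between groups in log2 units (x axis) for each PDGF probe set (y axis), 1 panel a comparison, from the limma fit over all single-gene probe sets. Points are differences, lines 95% intervals, filled points passed the test and open points did not; the receptor probe sets lie right of 0 between embryoid bodies and PSC.

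Among the ligands, Pdgfa fell in embryoid bodies. Its values in 1418711_at were 8.54, 8.81 and 8.75 in PSC, 8.16 and 8.01 in embryoid bodies, and 8.98, 8.65 and 8.75 in ESC. Both embryoid body arrays lay below every other array, and PSC and ESC were mixed. The means were 8.70 ± 0.14 (SD, n = 3), 8.09 ± 0.10 (n = 2) and 8.79 ± 0.17 (n = 3). Pdgfa fell by 0.61 ± 0.14 (SE) log2 units against PSC, 1.53-fold (limma adjusted p = 0.00277). As large a measured fall or a larger one was found for 2896 of 18194 genes, 15.9%. Embryoid bodies minus ESC was -0.71 ± 0.14, 1.63-fold lower (limma adjusted p = 0.00089). After cyclic loess normalization the differences of embryoid bodies from PSC and from ESC were smaller, -0.44 and -0.46, and stayed past the test. PSC and ESC differed by -0.09 ± 0.13 (limma adjusted p = 0.671; 95% interval -0.37 to 0.18). The second probe set, 1449187_at, had means of 8.39 ± 0.13, 7.71 ± 0.11 and 8.34 ± 0.10, and its fall from PSC to embryoid bodies was -0.68 ± 0.13 (limma adjusted p = 0.00117).

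Pdgfb, the ligand of vascular and platelet sources, stayed close to the dim limit in every group. Its values in 1450414_at were 5.38, 5.68 and 5.48 in PSC, 5.54 and 5.39 in embryoid bodies, and 5.94, 5.27 and 5.74 in ESC. All 3 groups overlapped. The means were 5.51 ± 0.15, 5.46 ± 0.11 and 5.65 ± 0.34, and no pair passed the test, with embryoid bodies minus PSC at -0.05 ± 0.18 (limma adjusted p = 0.851; 95% interval -0.43 to 0.33) and PSC minus ESC at -0.14 ± 0.16 (limma adjusted p = 0.613). The sign of both differences changed under other settings, so no direction is given. In 1450413_at the means were 5.54 ± 0.21, 5.11 ± 0.13 and 5.18 ± 0.33, and embryoid bodies minus PSC was -0.43 ± 0.19 (limma adjusted p = 0.091). At this signal a change of Pdgfb smaller than these intervals was not detectable.

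Pdgfc, whose product is secreted with a CUB domain that has to be cut off before it can bind, differed between the undifferentiated cultures as well. Its values in 1419123_a_at were 8.81, 8.78 and 8.99 in PSC, 10.67 and 10.80 in embryoid bodies, and 9.86, 10.88 and 10.06 in ESC. All 3 PSC arrays lay below every array of the other groups, and ESC replicate 2 lay above both embryoid body arrays. The means were 8.86 ± 0.12 (SD, n = 3), 10.73 ± 0.09 (n = 2) and 10.27 ± 0.54 (n = 3). Pdgfc rose by 1.87 ± 0.23 (SE) from PSC to embryoid bodies, 3.66-fold (limma adjusted p = 1.67e-05), and PSC lay below ESC, at -1.41 ± 0.21 or 2.65-fold (limma adjusted p = 0.000336). In the second comparison 96 of 18194 genes, 0.528%, had a measured difference as far or farther in this direction.

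The order of embryoid bodies and ESC in Pdgfc was not settled. The difference was 0.47 ± 0.23 (limma adjusted p = 0.123; 95% interval -0.03 to 0.96), and without ESC replicate 2 it was 0.77 (limma adjusted p = 0.000515). With the mean of both probe sets it was 0.12 (limma adjusted p = 0.624). The second probe set, 1449351_s_at, is of a kind that can cross-hybridise and put embryoid bodies and ESC in the other order. Its values were 7.63, 7.60 and 7.86 in PSC, 8.87 and 9.26 in embryoid bodies, and 9.11, 9.41 and 9.36 in ESC, with embryoid bodies minus ESC at -0.23 ± 0.16 (limma adjusted p = 0.292). Both probe sets agreed in direction on PSC, which lay below embryoid bodies in 1449351_s_at by 1.37 ± 0.16 (limma adjusted p = 1.7e-05) and differed from ESC there by -1.59 ± 0.14 (limma adjusted p = 1.35e-05).

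Between PSC and ESC, limma called 0 of the 5 members higher in PSC, and at an unadjusted p below 0.05 also 0. Pdgfrb and Pdgfc were lower there, and the test left 3 uncalled. Here 20.8% of all genes were called, 9.07% as higher in PSC and 11.7% as lower. Of these calls 43.7% were higher, a share that became 50.5% after cyclic loess and 52.0% after repeated quantile normalization, so the excess of lower calls depends on the scaling. Without PSC replicate 1 the number of genes called was 2490 in place of 3782. Arrays of 2 of the 5 did not overlap, against 36.5% of all genes, and the median difference was -0.36 against 0.01 over all genes. Between embryoid bodies and ESC 2 members stood higher, 1 lower and 2 without a call, where 44.9% of all genes were called, 19.3% as higher and 25.6% as lower. Of those calls 43.0% were higher, and 55.0% after cyclic loess normalization, with Pdgfc as a further member called higher. Arrays of 3 of the 5 did not overlap there, against 61.1% of all genes. These comparisons share arrays, so their results are not independent of each other.

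The remaining family genes on the array are Pdgfd, which encodes a beta receptor ligand, and Pdgfrl, which encodes a receptor-like protein. Pdgfd was dim in PSC (3.57 ± 0.20) and ESC (3.37 ± 0.19) and 5.52 ± 0.41 in embryoid bodies, at least 1.95 ± 0.18 above PSC (limma adjusted p = 1.26e-06). The embryoid body arrays read 5.81 and 5.23, above all others. The mean of its 3 probe sets moved by 0.85. The other probe sets of Pdgfd were dim in every group and differed in direction. As embryoid bodies minus PSC, 1426319_at read 0.86 (limma adjusted p = 0.00117) and 1446691_at -0.25 (limma adjusted p = 0.202). Pdgfrl was dim in PSC (4.64 ± 0.35) and ESC (5.18 ± 0.22) and read 5.45, close to the dim limit, in embryoid bodies. It was higher in embryoid bodies than in PSC by at least 0.81 ± 0.19 (limma adjusted p = 0.00281). Its difference between PSC and ESC, -0.54 ± 0.17 (limma adjusted p = 0.0328), did not pass without PSC replicate 1, PSC replicate 3 or ESC replicate 3.

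Genes that process or bind PDGF ligands were taken as a list of 12. Embryoid bodies had 6 of them higher than PSC and 2 lower, 4 were not called, and the median difference was 0.68. Counts of this and the following lists are to be read against the shares and medians of all genes given above. Plat, which encodes the tissue plasminogen activator that cuts PDGF-C, was dim in PSC at 5.43 and rose to 8.39, by at least 2.96 ± 0.14, and the mean of its probe sets rose by 1.48. Nrp1, the co-receptor neuropilin 1, rose from 4.36 to 10.91, by at least 6.55, and Thbs1, which encodes thrombospondin 1, from 4.94 to 9.05, by at least 4.10. Pcsk5, a proprotein convertase, rose by at least 2.86 in a probe set that can cross-hybridise, but without such probe sets it read -0.33 (limma adjusted p = 0.0964), so its direction is not given. PSC minus ESC gave 2 higher genes, 1 lower gene and 9 without a call. These counts fell to 0 higher without PSC replicate 2 or ESC replicate 3, and to 0 lower without PSC replicate 2, PSC replicate 3 or ESC replicate 1. The lower gene was Nrp1, at -0.71 ± 0.20 and dim in both groups. Averaged over its probe sets it read -0.36, and it lost its call without PSC replicate 2, PSC replicate 3, ESC replicate 1 or ESC replicate 2 and with array weights.

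**Figure D3:**
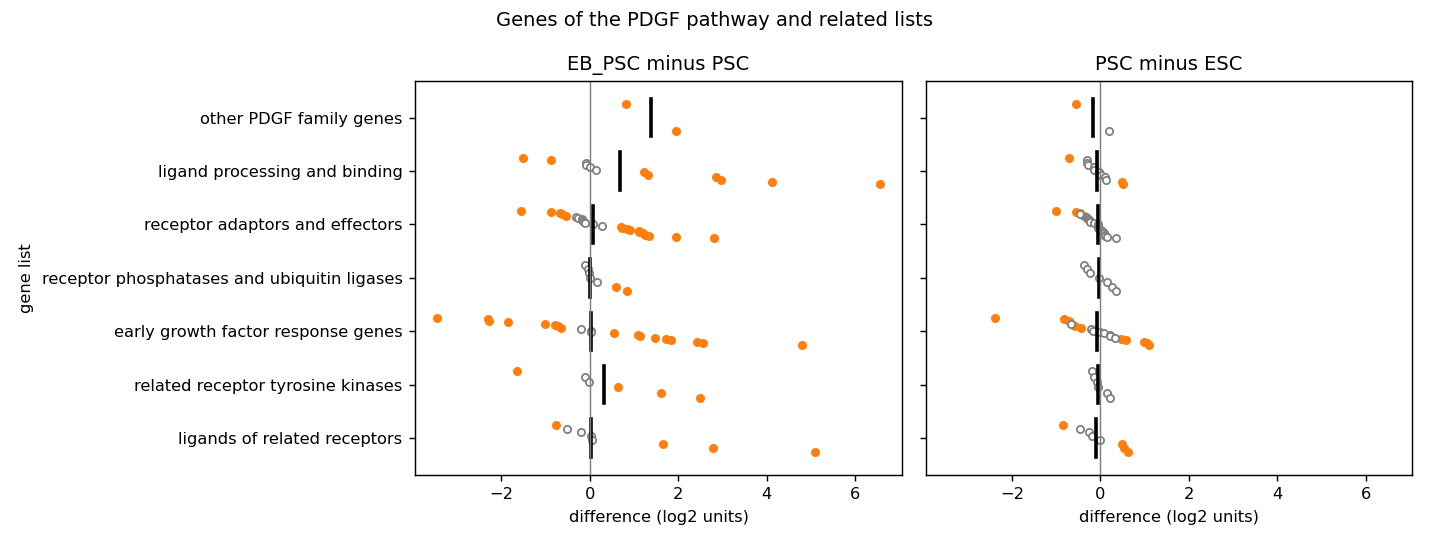
Differences in log2 units (x axis) of the genes in 7 lists of PDGF pathway and related genes (y axis), for embryoid bodies minus PSC and PSC minus ESC. Each point is a gene, filled where it passed the test, and the black line is the list's median; lists of receptor adaptors and early response genes spread to both sides of 0.

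Downstream of the receptors, 25 of 26 listed adaptor and effector genes were measured. In embryoid bodies 11 exceeded PSC, 5 lay below it and 9 had no call, with a median of 0.06. Pik3r3, a regulatory subunit of phosphatidylinositol 3-kinase, rose by 2.81 ± 0.14 (7.02-fold) and Sos2, a Ras exchange factor, by 1.95 ± 0.19 (3.86-fold). Gab1, a docking protein, changed by -1.56 ± 0.14 (2.94-fold lower). Limma called 0 of the 25 higher in PSC than in ESC (1 at an unadjusted p below 0.05) and 4 lower, and 21 had no call. The 4 became 1 without PSC replicate 2 and 7 with array weights. Pik3ca, the catalytic subunit, differed most at -1.01 ± 0.11 (2.01-fold lower in PSC) and at -0.36 with the mean of its probe sets. Of 7 genes for phosphatases and ubiquitin ligases that act on the receptors, Ptpn12 (0.84 ± 0.14) and Cblb (0.58 ± 0.14) were higher in embryoid bodies, 5 had no call, and between PSC and ESC limma called 0 of the 7 (1 higher and 1 lower at an unadjusted p below 0.05, and 2 higher and 1 lower with array weights).

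Early response genes, which growth factors induce within a short time, went both ways. Of 20 genes 9 stood higher in embryoid bodies than in PSC, 8 stood lower and 3 had no call, and the median was 0.03. Has2, which encodes hyaluronan synthase 2, was dim in PSC at 4.47 and rose to 9.26, by at least 4.79, and the matrix protein genes Ccn1 and Ccn2 rose by 2.56 ± 0.15 and 2.43 ± 0.16. Fos, the immediate early transcription factor, changed by -3.45 ± 0.15 (10.9-fold lower). PSC exceeded ESC in 5 of the 20, lay below in 7 and had no call in 8, and Myc stood farthest at -2.38 ± 0.19 (5.20-fold lower in PSC).

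PDGF receptors belong to a class of receptor tyrosine kinases that includes the products of Kit, Csf1r and Flt3, and the vascular endothelial growth factor receptors are close relatives. Of 6 such genes 3 rose in embryoid bodies against PSC, 1 fell and 2 were uncalled. Kdr rose from 5.60 ± 0.09 to 8.08 ± 0.22, by 2.48 ± 0.13 or 5.58-fold, and Flt1 rose by 1.61 ± 0.14 or 3.06-fold. Kit changed from 8.78 ± 0.21 to 7.13 ± 0.10, by -1.65 ± 0.15 or 3.14-fold lower, and by -0.98 with the mean of its probe sets. Limma called 0 of the 6 in PSC minus ESC, and 0 had an unadjusted p below 0.05. In this comparison Pdgfrb lay at least 2.05 below ESC in 1436970_a_at and had no call in 1417148_at.

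In RefSeq's order of protein-coding genes for GRCm38.p6, Pdgfra is followed by Kit and then Kdr. The middle gene of this run went the other way from its neighbours in embryoid bodies. Pdgfra and Kdr were 2.86 and 2.48 above PSC and Kit differed by -1.65, with no overlap between the groups' arrays for any of the 3. Csf1r follows Pdgfrb in the same order. It was 0.64 ± 0.14 above PSC (limma adjusted p = 0.00222), but without probe sets that can cross-hybridise it read 0.017 (limma adjusted p = 0.934), and averaged over every probe set of the gene 1.28 (limma adjusted p = 8.86e-05). Pdgfc is followed by 2 genes named here for their position alone, Ctso, which was at least 2.89 above PSC in embryoid bodies, and Tdo2, which was at least 4.96 above. As PSC minus ESC, Ctso read 0.11 and Tdo2 0.14, neither with a call, where Pdgfc differed by -1.41. Other neighbours of the members, those of Pdgfa and Pdgfb among them, are not described here.

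Of 8 measured ligand genes for the related receptors, 3 rose in embryoid bodies against PSC, 1 fell and 4 were uncalled. Kitl, the ligand of Kit, rose from 5.93 to 11.02, by 5.09 ± 0.16 or 34.0-fold, and by 2.50 with the mean of its probe sets. Its receptor gene Kit was lower in the same arrays. Vegfc rose by 2.78 ± 0.29, or by 1.80 without probe sets that can cross-hybridise. Pgf, placental growth factor, rose by 1.65 ± 0.13.

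**Figure D4:**
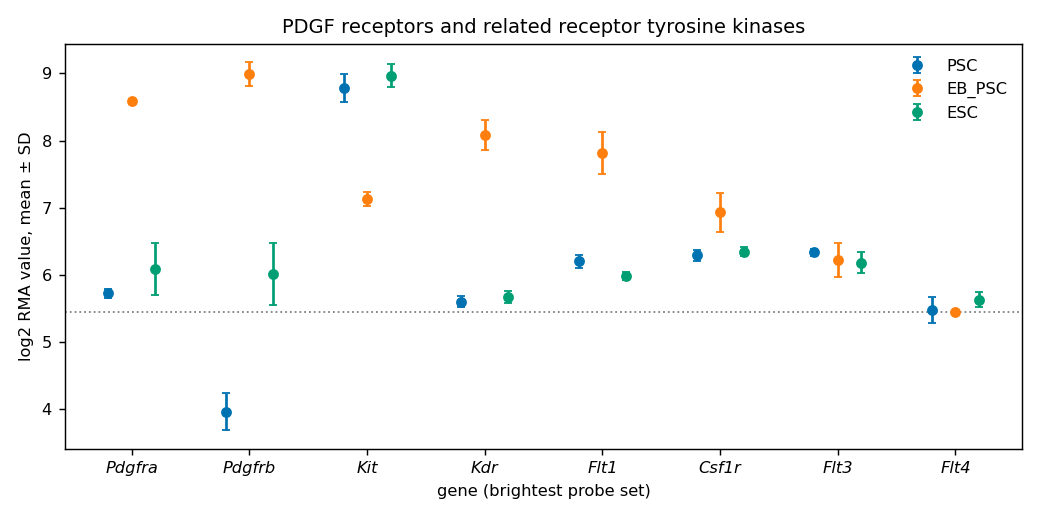
Log2 RMA values (mean ± SD over arrays, y axis) of the PDGF receptor genes and 6 related receptor tyrosine kinase genes (x axis) in PSC, embryoid bodies and ESC, with the dim limit of 5.44 as a dotted line. Pdgfra, Pdgfrb, Kdr and Flt1 are highest in embryoid bodies, Kit is lowest there, and only values of the same gene are to be compared.

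Marker genes of the cell types known to use PDGF signalling moved in the same arrays. Fibroblast markers had a summed linear signal of 1025 to 1126 in PSC, 13041 to 17066 in embryoid bodies and 1644 to 2105 in ESC. Between embryoid bodies and PSC 10 of 14 rose, 1 fell and 3 were uncalled, led by Postn (at least 6.27), Lum (at least 6.16) and Col3a1 (5.42 ± 0.22). PSC minus ESC gave 8 of 14 lower, limma called 0 higher (also 0 at an unadjusted p below 0.05), and the median was -0.66. Col1a1 read 5.75 in PSC and 7.03 in ESC, a difference of -1.28 (-0.73 averaged over its probe sets), and S100a4 differed by -1.45. The comparison in which these markers and Pdgfrb were lower in PSC is also the one in which the labels name feeder fibroblasts for ESC alone. The part of fibroblast RNA in the Pdgfrb difference was not tested.

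Mural cell markers, for pericytes and smooth muscle, had a summed signal of 1132 to 1197 in PSC, 22711 to 23637 in embryoid bodies and 1209 to 1465 in ESC. Of 13 genes 4 were higher in embryoid bodies than in PSC, 2 were lower and 7 were uncalled. The median difference was -0.04, so the larger sum came from the few genes that rose and not from the list as a whole. Only 1 was lower without embryoid body replicate 2 or PSC replicate 2. Acta2 rose by 5.97, Tagln rose by 5.73 ± 0.16, and Rgs5 rose from 3.79 to 8.96, by at least 5.17 (3.32 with the mean of its probe sets). Without probe sets that can cross-hybridise Acta2 read 0.29 (limma adjusted p = 0.144), and the summed signal includes its cross-hybridising probe set. Cspg4, the pericyte proteoglycan, read 6.10 in PSC and 5.83 in embryoid bodies and did not pass, with no settled direction, and Kcnj8, Anpep, Myh11 and Foxs1 were dim in embryoid bodies. The part of mural cells in the Pdgfrb rise was not tested.

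Lists for the lineages in which Pdgfra is known are given beside its rise. Extraembryonic endoderm markers had a summed signal of 710 to 831 in PSC, 3910 to 5847 in embryoid bodies and 676 to 819 in ESC, with 8 of 12 higher in embryoid bodies than in PSC and 1 lower. Afp (at least 6.53), Sox17 (at least 6.12, and 1.35 without probe sets that can cross-hybridise), Dab2 (at least 4.44) and Gata6 (at least 2.55) were among them, and with the mean of their probe sets Dab2 rose by 2.60 and Gata6 by 1.38. Of 14 paraxial and cardiac mesoderm markers 7 stood higher, 3 lower and 4 uncalled, led by Tbx20 (at least 5.69) and Hand2 (at least 4.97), which rose by 2.78 and 1.97 with the mean of their probe sets. Their summed signal was 984 to 1116 in PSC, 2378 to 2732 in embryoid bodies and 1502 to 2117 in ESC. The epicardial list was dim in all groups, with 0 of 6 means above 5.44. Of the oligodendrocyte precursor list, limma called 0 of 7 genes higher in embryoid bodies than in PSC (also 0 at an unadjusted p below 0.05) and 3 lower, Olig1 and Olig2 among them, at 9.69 and 7.20 in PSC, 6.80 and 4.52 in embryoid bodies and 3.96 and 3.66 in ESC. The part of endoderm and mesoderm cells in the Pdgfra rise was not tested.

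Markers of known sources of PDGF-B are given beside Pdgfb. Endothelial markers had a summed signal of 828 to 914 in PSC, 1315 to 1421 in embryoid bodies and 808 to 1015 in ESC. Of 13 genes 8 exceeded PSC in embryoid bodies, 2 lay below and 3 were uncalled, with Kdr and Tek (2.23 ± 0.19) higher and Vwf (-2.07 ± 0.17) and Pecam1 (-1.05 ± 0.22) lower. Megakaryocyte and platelet markers summed to 319 to 367 in PSC, 386 and 573 in the embryoid body arrays and 314 to 416 in ESC, with 3 of 6 higher in embryoid bodies than in PSC and 3 uncalled. Macrophage markers summed to 675 to 790 in PSC, 509 and 710 in the embryoid body arrays and 443 to 464 in ESC. Of 10 genes 5 rose in embryoid bodies against PSC, 1 fell and 4 were uncalled, and 3 rose without embryoid body replicate 2, the higher array in this list and the platelet list, or without PSC replicate 3. With dim genes left out of the test 2 rose. Pdgfb itself read 5.54 and 5.39 on the embryoid body arrays. All 8 markers of undifferentiated cells were lower in embryoid bodies than in PSC and above the dim limit in every group, Pou5f1 at 11.70 in PSC, 9.56 in embryoid bodies and 12.31 in ESC.

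**Figure D5:**
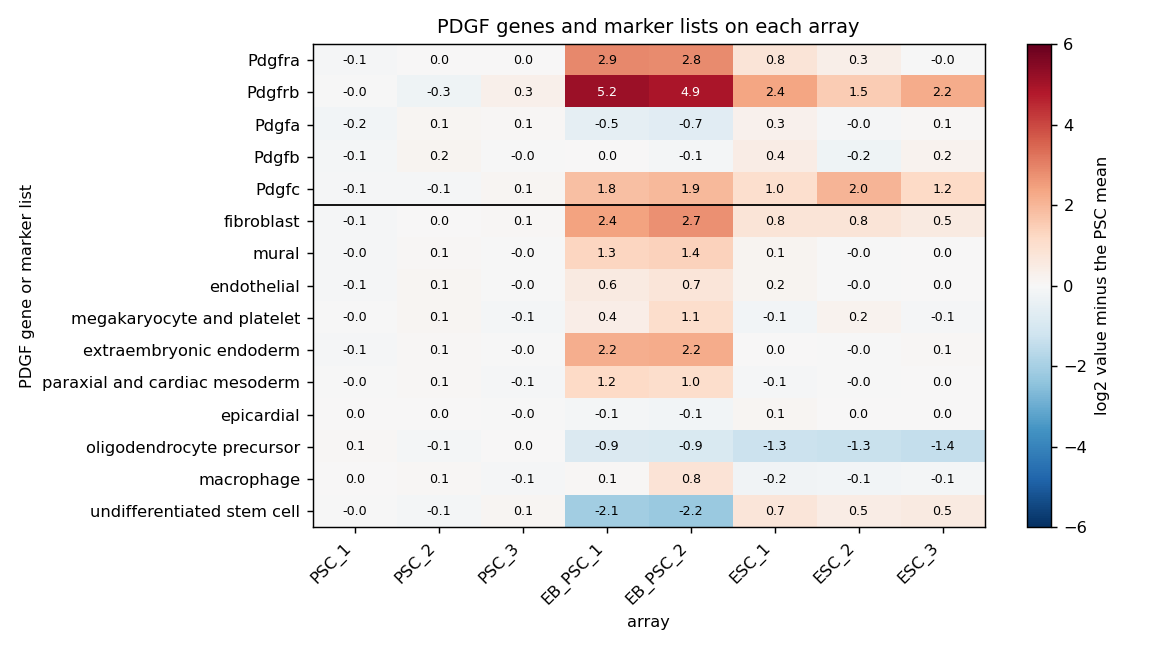
Log2 value minus the PSC mean (colour and number in each cell) on the 8 arrays (x axis) for the 5 PDGF genes, above the line, and the mean log2 value of 10 marker lists, below it (y axis). The embryoid body columns are red for Pdgfra, Pdgfrb and Pdgfc and for the fibroblast, endoderm, mural and mesoderm lists, with paler red for the endothelial, platelet and macrophage lists. The ESC columns are red for Pdgfrb and Pdgfc and, more weakly, for the fibroblast and undifferentiated lists and for Pdgfra on ESC replicate 1.

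Arrays within a group correlated closely, whereas ESC stood apart from the other groups in the Gapdh measure of RNA quality. Across probe sets, which are no independent replicates, Pearson's r was 0.994 to 0.995 within PSC, 0.991 to 0.995 within ESC and 0.992 between the embryoid body arrays. For Gapdh the log2 value of the 3' control probe set minus that of the 5' one was -0.06 to 0.00 in PSC, -0.09 to -0.06 in embryoid bodies and 0.08 to 0.17 in ESC, so ESC stood apart from PSC by 0.17 in size (exact two-sided permutation test, p = 0.1, the smallest possible). For Actb it was 1.04 to 1.54, 1.09 to 1.17 and 0.69 to 1.13. The part of RNA quality in the differences from ESC was not tested.

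For each member the most alike genes were taken from 12412 genes as those with the smallest root mean square difference between their mean-centred log2 values over the 8 arrays. Pdgfra, whose own values spread by a root mean square of 1.19, was followed most closely by Atrnl1 at 0.13, Lgals1 at 0.16 and Ocln at 0.18. Lgals1, which encodes galectin 1, read 10.75 in PSC, 13.83 in embryoid bodies and 11.18 in ESC. Pdgfrb, with a spread of 1.97, was followed by Cdh11, Spink1 and Dsp at 0.35, 0.40 and 0.46. Cdh11, which encodes the mesenchymal cadherin 11, read 4.89 ± 0.18, 10.27 ± 0.0023 and 6.80 ± 0.27, and so repeated the order of embryoid bodies over ESC over PSC. Pdgfc, with a spread of 0.84, had Aard (0.30), C1d (0.31) and Patj (0.32) nearest. For Pdgfa (spread 0.31) and Pdgfb (spread 0.21) the nearest genes, Taf10, Dcps and Bud23 for the first and Usp19, Tmem214 and Map3k11 for the second, lay within 0.05 to 0.07, and at such small spreads likeness says little. Likeness over 8 arrays of 3 groups is a description of these arrays.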

How the data were processed

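Each array gave 1 column of log2 RMA values, deposited by the authors after RMA, per the submitters' processing notes, in Bioconductor software, per the labels. Version and settings: not given in the sources used here. Values ran from 2.56 to 14.86, from which the log2 scale was read, and no further normalization was applied. RMA brings arrays to like distributions and compresses differences of dim probe sets. The platform annotation names 1 gene for 34958 of 45101 probe sets, several for 932 and none for 9211.

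All 8 arrays were fitted together in R 4.3.3 by limma 3.58.1 (lmFit, contrasts and eBayes with group alone, 5 residual and 8.07 prior degrees of freedom), two-sided, with Benjamini-Hochberg adjustment over 18194 genes, and again over 34958 probe sets. Errors of differences are standard errors of the fit. Promoters came from RefSeq's table for GRCm38.p6. Counts and figures were made in Python 3.11.15 with pandas 2.3.3, NumPy 2.4.6 and Matplotlib 3.10.9.

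The members, gene lists and tests were chosen with earlier results of these data known. Named genes are the members, their family, the 3 genes most alike to each, up to 4 called genes of a list by size and a few fixed markers. Listed genes without a probe set of their own were not analysed here. On simulated data for 18194 genes the test between embryoid bodies and PSC found 22% of true differences of 0.5 log2 units. It found 92% at 1 and 100% at 2, and called 8 genes that had none. Such shares can change with the number of genes that differ, and the sensitivity on the arrays themselves was not tested. Arrays with shared replicate numbers correlated with both signs, in a check that cannot exclude a pairing, and no block was used in the main fit. Alternatives covered normalization, the dim filter, the choice of probe sets, the arrays fitted, the variance prior, array weights, a replicate block and each array left out. The number of arrays limits precision, above all in the group of 2.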

Additional observations from a re-analysis of the deposited data

How the results depend on the processing

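Among the members' values, counts and related results, 373 of 390 alternative values kept their direction and their side of the threshold; every change follows. The members' counts of calls did not move by over 1.5 times, and the calls of Pdgfra, Pdgfrb, Pdgfa and Pdgfc between embryoid bodies and PSC held in every setting run. Pdgfa in PSC minus ESC read 0.013 after repeated quantile normalization (main value -0.09). Pdgfb in embryoid bodies minus PSC read 0.053 after cyclic loess and -0.13 to 0.033 with arrays left out, positive without EB_PSC replicate 2 or PSC replicate 2. Pdgfb in PSC minus ESC read 0.11 when its probe sets were averaged and -0.33 to 0.004 with arrays left out. Pdgfc in embryoid bodies minus ESC passed with array weights (0.62, limma adjusted p = 0.0113) and cyclic loess (0.73, limma adjusted p = 0.0249), read 0.12 with the mean of probe sets (limma adjusted p = 0.624), and ranged from 0.26 to 0.77 with arrays left out. Pdgfra in PSC minus ESC ranged from -0.54 to -0.16. With the mean of probe sets the receptor balance changed by -1.57 (embryoid bodies minus PSC) and 0.94 (PSC minus ESC). Counts of called genes moved to 13855 (embryoid bodies minus PSC), 14344 (embryoid bodies minus ESC) and 6372 (PSC minus ESC) when every probe set was tested, which has more rows, and to 5693 in PSC minus ESC with array weights; leaving out arrays there gave 2490, without PSC replicate 1, to 4142. Among named genes of the lists, 1427 of 1511 values kept direction and call, 81 lost the call and 3 changed sign: Pcsk5 in embryoid bodies minus PSC (-0.33) and Acta2 in PSC minus ESC (0.086) without cross-hybridising probe sets, and Cspg4 in embryoid bodies minus PSC (0.047) with the mean of probe sets. Counts of called genes in the lists stayed within 1.5 times in 954 of 1054 values and moved farther in 100; that of lower mural genes in embryoid bodies minus PSC was 1 also after cyclic loess, with the mean of probe sets and with the replicate block. The causes were not tested.

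Deviations of arrays with the same replicate number correlated between -0.247 and 0.216. Deviations from a group mean cancel within the group, so this check can neither show nor exclude a pairing. With the replicate block the counts of called genes were 7517 (embryoid bodies minus PSC), 3564 (PSC minus ESC) and 7693 (embryoid bodies minus ESC), Pdgfrb rose by 5.15 over PSC, and no member's call changed.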
